A study of Mus musculus with 6 samples.

Results

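The genes described here encode the vacuolar H+-ATPase (V-ATPase), the Ragulator scaffold, the Rag GTPases, and Axin1 and Psenen, which serve the lysosomal route of metformin to AMPK. They were chosen by name from what the proteins do, and not by any measured value, although earlier results of these data were known. All 33 were found among the 55487 genes of the deposited table: 11 of the V1 sector of the V-ATPase, 9 of its V0 sector, 2 accessory subunits, 5 Ragulator subunits, 4 Rag GTPases, Axin1 and Psenen. The libraries were 3 controls and 3 with metformin, all from mouse oocytes. Per the labels, mice were primed with 10 IU of PMSG (a gonadotropin that drives follicle growth), and fully grown oocytes were taken 46 to 48 h later, freed of cumulus cells and matured in M16 medium for 16 h to the M2 stage with or without the drug. The protocol lists 10, 20 and 50 μM metformin, and which of these was sequenced is not stated. The series title speaks of aged mice, while the labels give no age, strain, genotype or number of oocytes per library.

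The V-ATPase is a rotary proton pump that acidifies lysosomes, endosomes and the Golgi. Its V1 sector hydrolyses ATP in the cytosol, and its V0 sector carries protons through the membrane. On the lysosome it holds Ragulator, a complex of 5 LAMTOR proteins that anchors the Rag GTPases, and these recruit mTORC1 when amino acids are present. When glucose is scarce, AXIN1 brings the kinase LKB1 to the same surface, where AMPK is activated. In the lysosomal model of low-dose metformin, the drug binds PEN2, the product of Psenen, which then binds the V-ATPase accessory subunit ATP6AP1 and inhibits the pump. These are protein events, and only transcripts were measured in these libraries.

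Every library had the transcripts of oocytes. The 10 oocyte markers summed in each library to between 22250 and 27960 CPM, the count corrected for library size. The 10 cumulus and granulosa markers summed to between 64.4 and 77.0 CPM. Nearly all of this was Cyp19a1 (35.95 to 48.04 CPM), Nr5a2 (16.2 to 21.3 CPM) and Kitl (7.98 to 11.5 CPM), present in every library. Amh, Foxl2 and Ptx3 were at 0 in all libraries, and Fshr, Has2, Inha and Inhba had 0 to 16 counts in each. The 4 stroma and endothelium markers summed to 29.5 to 34.1 CPM in control and 25.1 to 36.2 CPM with metformin, none of them at 0 throughout. Most of this was Pecam1, while Col1a1 and Col1a2 had 25 and 20 reads in control replicate 1 against 0 to 1 and 0 to 4 in each other library. The 9 blood and macrophage markers summed to 1.67 to 2.47 CPM with metformin and 1.92 to 33.4 CPM in controls. The upper end was the same library, control replicate 1, which held 281 haemoglobin reads against 0 to 2 in each other library. Of the other markers of this set, Adgre1 was at 0 in every library, Csf1r had 0 to 4 counts in each, and Cd68 had 10 to 23. Lyz2 and Ptprc were highest in control replicate 1, with 13 and 3 counts there against 0 to 5 and 0 to 2 in each other library. Without control replicate 1, 0 of the genes described were called, beside 0.0681% of all genes tested (edgeR). The fit with all libraries also called 0, so a loss of calls could not be seen. What the blood and stroma reads of that library contributed was not tested. Library totals ran from 8622281 to 10588292 counts, and 3 counts in a library, the floor used here for a gene with none, equal 0.285 to 0.338 CPM. In bulk RNA, fewer cells of a type and less RNA per cell cannot be told apart.

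The identity of the reads counted for Psenen bears on everything that can be said of it. Gm12396 is annotated as a processed pseudogene (an intronless copy of a spliced transcript) at chr4:40775259-40775564 on the minus strand of GRCm38. Its 306 bases were identical to the whole coding sequence of Psenen, with 0 mismatches, although Psenen lies on chromosome 7 (chr7:30561863-30563627, minus strand) and its coding sequence spans 2 exon junctions. The first 226 bases of that shared sequence are shown because a read inside them fits both genes. Capitals mark the bases on either side of the 2 junctions, where an intron interrupts Psenen and none interrupts the copy. The Psenen letters come from exons within chr7:30562075-30562856 and those of Gm12396 from chr4:40775339-40775564.
Psenen coding: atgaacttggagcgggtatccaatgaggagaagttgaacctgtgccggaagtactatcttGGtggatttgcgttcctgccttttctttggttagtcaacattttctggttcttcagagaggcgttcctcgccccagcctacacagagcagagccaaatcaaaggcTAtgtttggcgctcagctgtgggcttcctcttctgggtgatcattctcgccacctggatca
Gm12396: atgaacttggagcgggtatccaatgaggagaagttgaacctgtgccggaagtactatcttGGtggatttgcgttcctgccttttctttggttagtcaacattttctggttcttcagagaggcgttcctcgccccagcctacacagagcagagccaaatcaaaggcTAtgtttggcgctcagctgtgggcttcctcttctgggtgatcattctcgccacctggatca

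Lamtor3, a Ragulator subunit, has a similar copy, Gm5900, a processed pseudogene at chr7:104949915-104950289 (minus strand). It aligned with the 375 bases of the Lamtor3 coding sequence at 99.5% identity. The 2 differences are C111T and G336A, with Lamtor3 first, the copy second, and positions counted from 1 at the first coding base. Positions 71 to 151 are shown with C111T in capitals, because a read that covers neither difference cannot be assigned by sequence alone. The Lamtor3 letters lie within chr3:137925138-137926856 (plus strand) and those of Gm5900 at chr7:104950139-104950219.
Lamtor3 coding: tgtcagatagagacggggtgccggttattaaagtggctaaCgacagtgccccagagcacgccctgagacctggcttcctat
Gm5900: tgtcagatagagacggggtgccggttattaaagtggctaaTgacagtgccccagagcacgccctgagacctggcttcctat

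The transcripts of the complex spanned a wide range of levels in oocytes. To compare genes, levels are given as FPKM, the authors' read counts scaled to gene length and library size. Of the 33 genes, 15 had a mean of at least 10 FPKM over the 6 libraries, 11 lay between 1 and 10, 6 were above 0 and under 1, and Atp6v1b1 had no read in any library. Rraga and Rragc, which form one Rag heterodimer, led the order with 222 ± 18.2 and 146 ± 9.58 FPKM (SD, n = 6). Of the V-ATPase genes, Atp6ap2 and Atp6v1g1 had the highest levels, with 60.7 ± 6.40 and 51.8 ± 9.30 FPKM (SD, n = 6). At the other end stood Rragd, with 0.185 ± 0.0643 FPKM (SD, n = 6), and Atp6v1g2, with 1 read in 1 control library. Of the 31 pairs of neighbours in this order, 4 did not overlap over the libraries: Rraga and Rragc, Rragc and Atp6ap2, Atp6v1b2 and Lamtor1, and Rragd and Atp6v1g2. The other neighbours could not be ranked beyond their spread.

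The order at the top depended on the gene length that was used. The deposited FPKM values imply for all 32 detected genes a length equal to the sum of every distinct annotated exon within 1%, so that exons of overlapping isoforms count repeatedly and a gene with many isoforms is understated. Per kilobase of merged exons, Rragc stood first with 249 ± 16.6 CPM and Rraga second with 222 ± 12.7 CPM (SD, n = 6), and their ranges overlapped. Next came Lamtor2 with 72.4 ± 8.61 CPM per kilobase (SD, n = 6), ahead of Atp6ap2. Both orders use only the counts given to each gene itself, without its near-identical copies. For Psenen these averaged 14.7 CPM over the 6 libraries. Summed with its copies they were 147 CPM in control and 154 CPM with metformin, so its place in either order is uncertain. The fold changes between groups come from the counts and do not use either length.

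**Figure D1:**
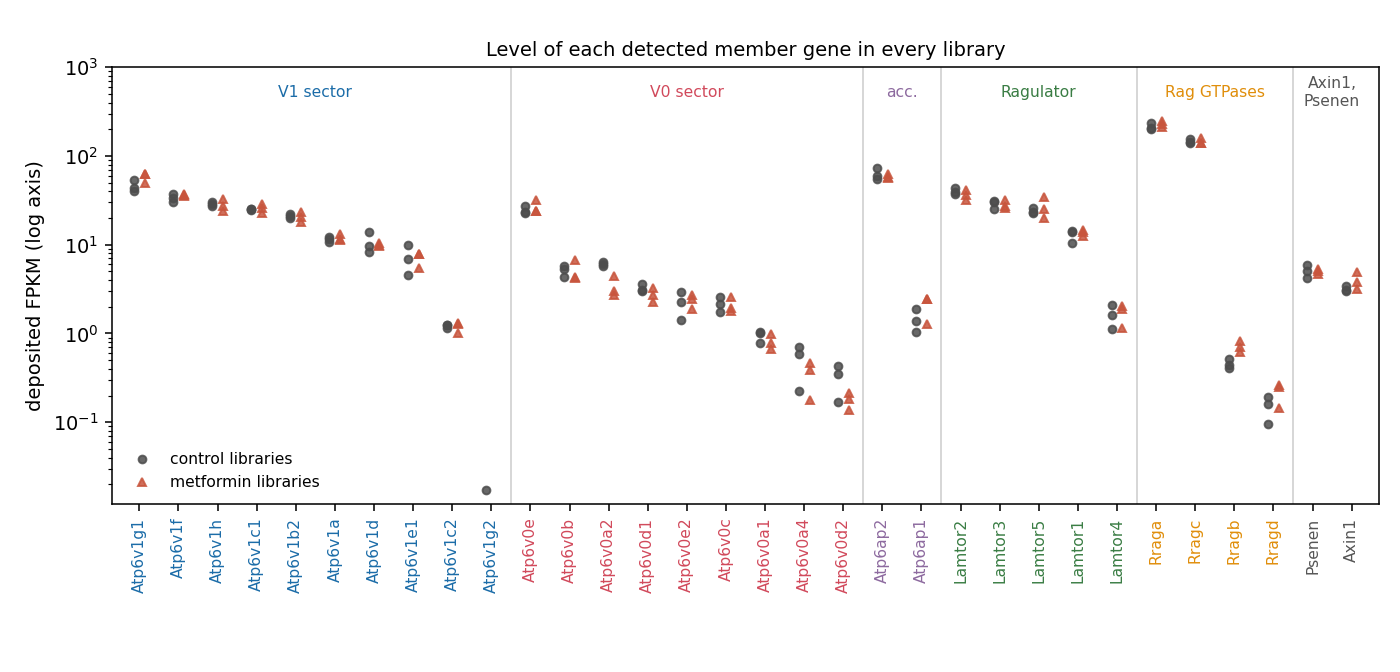
Deposited FPKM (log axis) of the 32 genes with a read, by role on the horizontal axis; each point is 1 library, circles for control and triangles for metformin, and a library at 0 has no point. Rraga and Rragc sit highest, at 138 FPKM or more in every library, and Atp6v1g2 has a single point.

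Where mice have several genes for 1 subunit, a single gene supplied most of the transcripts. Atp6v1b2 held 100% of the FPKM of the B subunit, the ATP-binding partner of subunit A, and Atp6v1g1 at least 99.9% of the G subunit, a part of the peripheral stalk. Atp6v1c1 held 95.2% to 95.7% of the C subunit, which links the stalk to V0. Atp6v0d1 held 87.8% to 94.7% of the d subunit, which couples the rotor to V1, and Atp6v0e 88.8% to 94.1% of the e subunit, a small membrane protein. Of the Rag pairs, Rraga held 99.6% to 99.8% of A and B, and Rragc 99.8% to 99.9% of C and D. Only the a subunit, the large membrane protein that lines the proton path, was shared more evenly, with Atp6v0a2 at 67.4% to 82.8%, Atp6v0a1 at 9.85% to 22.1% and Atp6v0a4 at 3.12% to 10.5% over the libraries. Genes better known from other tissues were near 0: Tcirg1 (the a3 subunit of osteoclasts) had 2 reads in 1 control library, Atp6v1g3 had none, and Atp6v1e2 (a testis form) had 2 reads in 1 metformin library.

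The study's question was how metformin changes oocytes that mature in its presence. Between the groups, 0 of the 30 genes tested reached an adjusted p of 0.05. The test was the quasi-likelihood test of edgeR with Benjamini-Hochberg adjustment over 12793 genes, of which 5 passed, or 0.0391%. DESeq2 also called 0 of the 30, with 0.0308% of its genes called, and limma-voom 0, with 0.0313%. At an unadjusted p under 0.05 there was 1 of the 30, Atp6v0a2, against 1.5% of all genes tested. The fitted change was higher in metformin for 18 genes and lower for 12, or 60% higher against 52.5% of all genes tested. The median log2 ratio of metformin over control was 0.01, equal to that of all genes tested at this rounding. Within 0.25 of 0 on the log2 scale lay 23 of the 30, or 76.7%, against 75.4% of all genes. The adjusted p in this fit was 1.00 for each of the 30 genes (edgeR).

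The size of change these libraries allow can be stated for most of the genes. For 25 of the 30, the 95% interval of the log2 ratio lay wholly between -1 and 1, which is 83.3% against 76.0% of all genes tested. The 5 others were Atp6v0a2, Atp6v0a4, Atp6ap1, Rragb and Rragd. The median standard error (SE) was 0.197 for the 30 genes and 0.239 for all genes tested. Of the 33 genes, 3 did not reach the minimum count and were not tested: Atp6v1b1 with no read, Atp6v1g2 with 1 read, and Atp6v0d2, a d subunit of osteoclasts and kidney, with 9, 4 and 12 counts in control and 5, 6 and 4 with metformin.

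**Figure D2:**
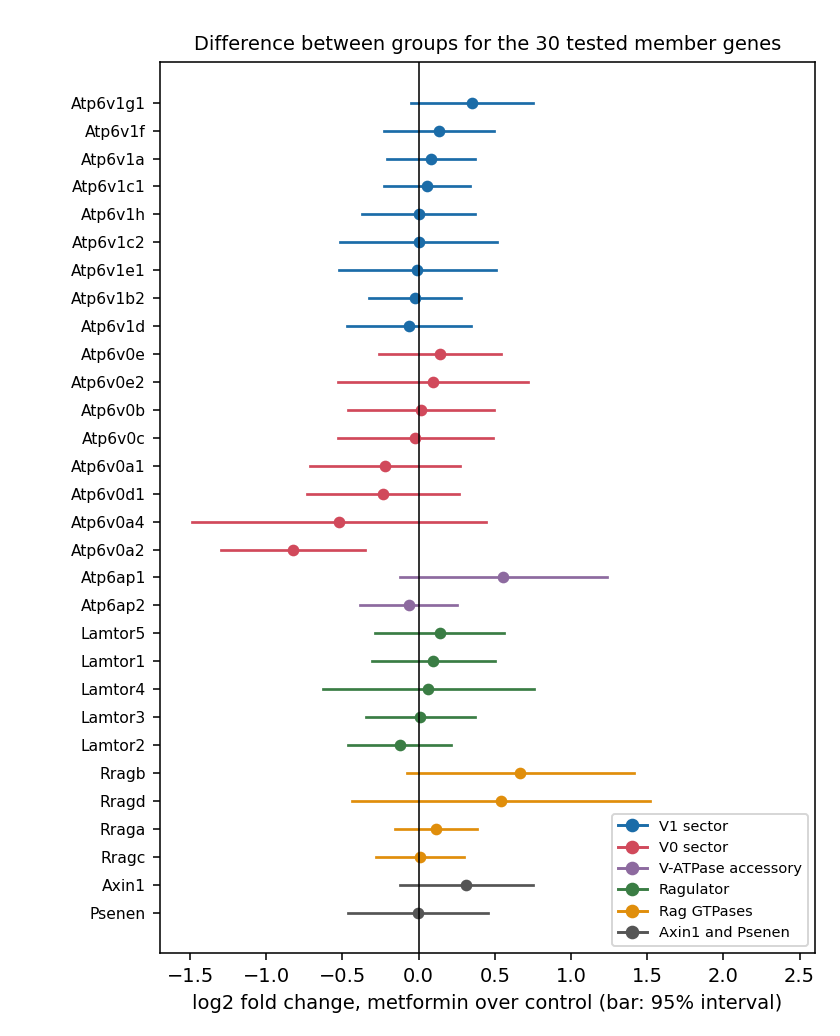
Log2 fold change of metformin over control for the 30 genes tested, with its 95% interval from the edgeR fit, coloured by role. The interval of Atp6v0a2 (-1.29 to -0.35) lies below 0, and each of the others spans 0.

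The 9 tested genes of the V1 sector, the ATP-hydrolysing head and its stalks, had a median log2 ratio of 0.00, with 5 fitted higher and 4 lower, and the interval of each lay between -1 and 1. Atp6v1a encodes the catalytic A subunit. It had 104, 98.1 and 98.04 CPM in the control libraries and 108, 101 and 108 CPM in the metformin libraries. These ranges overlapped, and the log2 ratio was 0.08 (SE 0.131, 95% interval -0.20 to 0.37). Atp6v1b2, the partner of A in the hexamer, had 127, 143 and 143 CPM in control and 127, 152 and 128 CPM with metformin. The metformin libraries spanned the control range, with a log2 ratio of -0.03 (SE 0.138, 95% interval -0.33 to 0.28).

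Atp6v1g1 had the largest fitted difference of the V1 sector. Its level was 48.0, 44.2 and 63.7 CPM in control and 66.4, 56.2 and 76.5 CPM with metformin. Control replicate 3 exceeded metformin replicate 2, so the groups overlapped. The log2 ratio was 0.35 (SE 0.183, 95% interval -0.05 to 0.75; unadjusted p = 0.0803, adjusted p = 1.00, edgeR). The other tested V1 genes, Atp6v1c1, Atp6v1c2, Atp6v1d, Atp6v1e1, Atp6v1f and Atp6v1h, were fitted between -0.06 and 0.13 on the log2 scale. Of these, Atp6v1h changed sign with scaling by library size, from 0.00.

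The V0 sector held the largest difference of all the genes described. The 8 genes tested had a median log2 ratio of -0.12, with 3 fitted higher and 5 lower. Atp6v0a2 (ENSMUSG00000038023, chr5:124628576-124724455, plus strand) encodes the a2 isoform, known from the Golgi and early endosomes, and people who lack it have a form of cutis laxa. It had 554, 572 and 635 counts in the control libraries and 307, 285 and 483 in the metformin libraries. On the scale of library size these were 58.2, 64.7 and 65.6 CPM against 29.2, 28.0 and 49.4 CPM. The groups did not overlap, and metformin replicate 3 stood closer to the controls than the other metformin libraries did.

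The means of Atp6v0a2 were 62.8 ± 4.01 CPM in control and 35.5 ± 12.04 CPM with metformin (SD, n = 3). The log2 ratio was -0.82 (SE 0.215, 95% interval -1.29 to -0.35). The unadjusted p was 0.00265 and the adjusted p 1.00 by edgeR, and by DESeq2 0.000527 and 0.762. The call depended on 1 library: without metformin replicate 3 the log2 ratio was -1.14 (SE 0.166) and the adjusted p 0.0394 (edgeR), in a fit where 0.0907% of genes passed. Over all alternatives the adjusted p of Atp6v0a2 ran from 0.0394 to 1.00. Leaving out another library in its place gave log2 ratios from -0.68 to -0.88. The antisense gene 4930404A12Rik shares 663 bases with the exons of Atp6v0a2, and 0 to 5 reads per library were counted for it. Reads of opposite strands cannot be told apart here, and how reads of the shared bases were counted is not given. Their part in the difference was not tested.

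The other a subunit genes did not show a higher level where Atp6v0a2 was lower. Atp6v0a1, the isoform best known from neurons, had 9.12 ± 1.59 CPM in control and 7.82 ± 1.02 CPM with metformin (SD, n = 3), a log2 ratio of -0.22 (SE 0.224). Atp6v0a4, the isoform of kidney intercalated cells, had 33, 37 and 14 counts in control and 28, 11 and 25 with metformin. These overlapped widely, with a log2 ratio of -0.52 (SE 0.439, 95% interval -1.49 to 0.44). Its exons share 259 bases with D630045J12Rik on the same strand, which had 251 to 393 counts per library, so reads of the shared stretch could have been counted for either gene.

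Summed over the 4 a subunit genes, the level was 7.34, 7.91 and 7.31 FPKM in control and 4.43, 3.66 and 5.45 FPKM with metformin. The sum followed its main component, with all metformin libraries below all controls and metformin replicate 3 again the nearest. The ratio of the means was 0.600 on FPKM and 0.607 per kilobase of merged exons. This sum was formed after the values had been seen and was given no test. The share of Atp6v0a2 in it was 78.3%, 80.8% and 82.8% in control and 67.4%, 73.8% and 80.7% with metformin. The shares overlapped, and their means differed by -6.67 percentage points, a value that ran from -10.04 without metformin replicate 3 to -3.39 without metformin replicate 1.

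**Figure D3:**
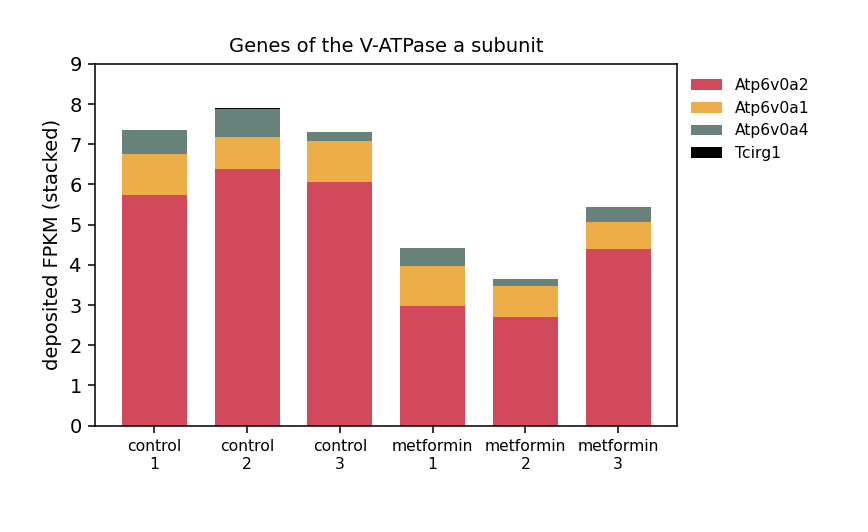
Deposited FPKM of the 4 genes of the V-ATPase a subunit, stacked, 1 bar per library. The total is 7.31 to 7.91 FPKM in the control bars and 3.66 to 5.45 FPKM in the metformin bars, and most of the height is Atp6v0a2 in each.

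The remaining V0 genes showed no such gap. Atp6v0e, the most abundant V0 gene, had 97.1, 95.3 and 121 CPM in control and 96.1, 102 and 147 CPM with metformin. Replicate 3 was the highest of each group, and the log2 ratio was 0.14 (SE 0.184, 95% interval -0.26 to 0.54). Atp6v0d1 had 7.46, 6.22 and 6.92 CPM in control and 5.42, 6.88 and 5.22 CPM with metformin, with a log2 ratio of -0.23 (SE 0.228, 95% interval -0.73 to 0.26). Metformin replicate 2 fell inside the control range. Atp6v0b and Atp6v0c encode subunits of the proton-carrying ring and Atp6v0e2 a second e subunit, and their fitted log2 ratios lay between -0.02 and 0.10. For Atp6v0c, near-identical copies held 27.7% to 44.1% of the summed counts. Summed with them, its log2 ratio was -0.16 (SE 0.196) in place of -0.02 (SE 0.232). The main copy, Atp6v0c-ps2, had 41 to 53 counts with metformin against 50 to 67 in control, which overlapped. In CPM it was lower without overlap, by little (4.196 to 5.041 against 5.166 to 7.575), as were 2.79% of all genes tested. Its log2 ratio of -0.40 (SE 0.248) did not pass the test.

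Levels were also summed over the V-ATPase. The 22 subunit genes together came to 297, 283 and 299.8 FPKM in control and 299, 303 and 309.6 FPKM with metformin, a ratio of means of 1.036. Metformin replicate 1 lay within the control range. By sector, the V1 genes summed to 185 ± 6.43 FPKM in control and 199.5 ± 3.59 FPKM with metformin, and the V0 genes to 44.8 ± 2.03 and 43.4 ± 4.39 FPKM (SD, n = 3). The V1 sums did not overlap between groups on FPKM (178.9 to 191.6 in control and 195.3 to 201.6 with metformin), but they did per kilobase of merged exons (204 to 230.5 and 219 to 249.8 CPM). Most of the V1 difference on FPKM lay in Atp6v1g1 alone, with 45.7 ± 7.19 FPKM in control and 57.9 ± 7.26 FPKM with metformin (SD, n = 3). No test was made on the sums.

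The accessory subunits help to assemble and target the pump. Atp6ap1, the subunit to which drug-bound PEN2 attaches in the model, had 9.04, 12.2 and 7.13 CPM in control and 7.99, 16.1 and 17.6 CPM with metformin. Metformin replicates 2 and 3 were above every control, and metformin replicate 1 was below 2 of them. The log2 ratio was 0.56 (SE 0.308, 95% interval -0.12 to 1.24; unadjusted p = 0.0994, adjusted p = 1.00, edgeR). It ran from 0.35 without metformin replicate 3 to 0.83 without metformin replicate 1 (adjusted p = 0.999, edgeR). Atp6ap2, also called the prorenin receptor, had 194, 147 and 173 CPM in control and 146, 174 and 171 CPM with metformin. The groups overlapped, with a log2 ratio of -0.07 (SE 0.146, 95% interval -0.39 to 0.25).

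All 5 Ragulator genes were tested, with a median log2 ratio of 0.06, and the interval of each lay between -1 and 1. Lamtor1 encodes the lipid-anchored subunit that ties the complex to the lysosome. It had 45.9, 33.9 and 50.8 CPM in control and 44.04, 42.3 and 53.5 CPM with metformin, a log2 ratio of 0.10 (SE 0.185, 95% interval -0.31 to 0.50). Lamtor2, the most abundant of the 5 by FPKM, had 87.0, 83.3 and 106 CPM in control and 90.0, 73.7 and 89.5 CPM with metformin. Here metformin replicate 2 was the lowest library, and the log2 ratio was -0.13 (SE 0.155, 95% interval -0.46 to 0.21).

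Lamtor3, Lamtor4 and Lamtor5 had log2 ratios of 0.01 (SE 0.165), 0.06 (SE 0.316) and 0.14 (SE 0.194). The sign for Lamtor3 turned with scaling by library size. Lamtor4 was the scarcest of the 5, with 2.79 ± 0.757 CPM in control and 2.91 ± 0.658 CPM with metformin (SD, n = 3). The exons of Lamtor1 share 600 bases with Lrrc51 on the opposite strand, and 0 to 4 reads per library were counted for that gene.

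The 4 Rag GTPase genes were each fitted higher with metformin, as were 52.5% of all genes tested, and 0 of the 4 passed the test. Their median log2 ratio of 0.33 was near none of them. The abundant Rraga and Rragc were fitted at 0.11 and 0.01, and the scarce Rragb and Rragd at 0.67 and 0.54. The sign of Rragc changed in 4 of 15 alternatives. In CPM, of the 30 genes tested, Rraga and Rragb were higher with metformin without overlap between the groups and Atp6v0a2 was lower without overlap. Among all genes tested, 2.84% were higher and 2.79% lower without overlap. Rraga had 367, 327 and 341 CPM in control and 381, 368 and 370 CPM with metformin. The lowest metformin library exceeded the highest control by little (368.1 against 367.1 CPM). On FPKM the groups of Rraga overlapped, with 201.6 to 232.3 in control and 211.1 to 249.6 with metformin. The log2 ratio was 0.11 (SE 0.122, 95% interval -0.15 to 0.38). Rragb, the close relative of Rraga best known from brain, had 12, 13 and 12 counts in control and 18, 21 and 25 with metformin. Its log2 ratio was 0.67 (SE 0.340, 95% interval -0.08 to 1.41; unadjusted p = 0.0740, adjusted p = 1.00, edgeR), on few counts.

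Rragc, the partner of Rraga, had 795, 776 and 921 CPM in control and 864, 792 and 851 CPM with metformin, with a log2 ratio of 0.01 (SE 0.131, 95% interval -0.28 to 0.29). All metformin values lay within the control range. Rragd, the relative of Rragc that is induced by TFEB in other cells, had 9, 5 and 12 counts in control and 15, 9 and 17 with metformin. The groups overlapped, and the interval of -0.44 to 1.52 around a log2 ratio of 0.54 (SE 0.446) allowed changes in both directions.

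Axin1 encodes the scaffold that carries LKB1 to the lysosome. It had 15.2, 15.6 and 18.6 CPM in control and 24.1, 16.3 and 21.1 CPM with metformin. Metformin replicates 1 and 3 were above all controls and metformin replicate 2 was not, with a log2 ratio of 0.31 (SE 0.199, 95% interval -0.12 to 0.75; unadjusted p = 0.143, adjusted p = 1.00, edgeR). It was 0.18 without metformin replicate 1 and 0.45 without metformin replicate 2.

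Psenen encodes PEN2, the smallest subunit of gamma-secretase and the metformin-binding protein of the model. The counts given to Psenen were 137, 105 and 173 in control and 133, 157 and 156 with metformin. Those given to its copy Gm12396 were 1160, 1091 and 1445 in control and 1258, 1360 and 1588 with metformin, so that the copy received several times more in every library. With a further copy, Gm20369, near-identical copies held 89.4% to 91.3% of the summed counts. How reads that match both genes were divided is not given in the sources used here, and whether the pseudogene is transcribed was not tested.

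For Psenen alone the level was 14.7 ± 3.01 CPM in control and 14.7 ± 1.78 CPM with metformin (SD, n = 3), a log2 ratio of -0.01 (SE 0.209, 95% interval -0.46 to 0.45). Summed with its copies the level was 147 ± 18.2 and 154 ± 23.6 CPM (SD, n = 3), a log2 ratio of 0.07 (SE 0.155, 95% interval -0.27 to 0.41). The level assigned to Psenen thus depended on the copies, and neither interval excluded 0. Psenen exons also share 119 bases with U2af1l4 on the opposite strand, which had 111 to 165 counts per library.

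For Lamtor3, Gm5900 received 713, 539 and 735 counts in control and 599, 760 and 861 with metformin, 24.7% to 27.7% of the sum. Summed, the log2 ratio of Lamtor3 was 0.02 (SE 0.165). In all, 8 of the 33 genes had a copy with at least 95% identity over at least 200 bases: Atp6ap2, Atp6v0c, Atp6v1f, Atp6v1g1, Lamtor1, Lamtor3, Lamtor5 and Psenen. With these summed, 0 of the 30 genes were called beside 0.0391% of all genes, an alternative that was added after the data had been seen.

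**Figure D4:**
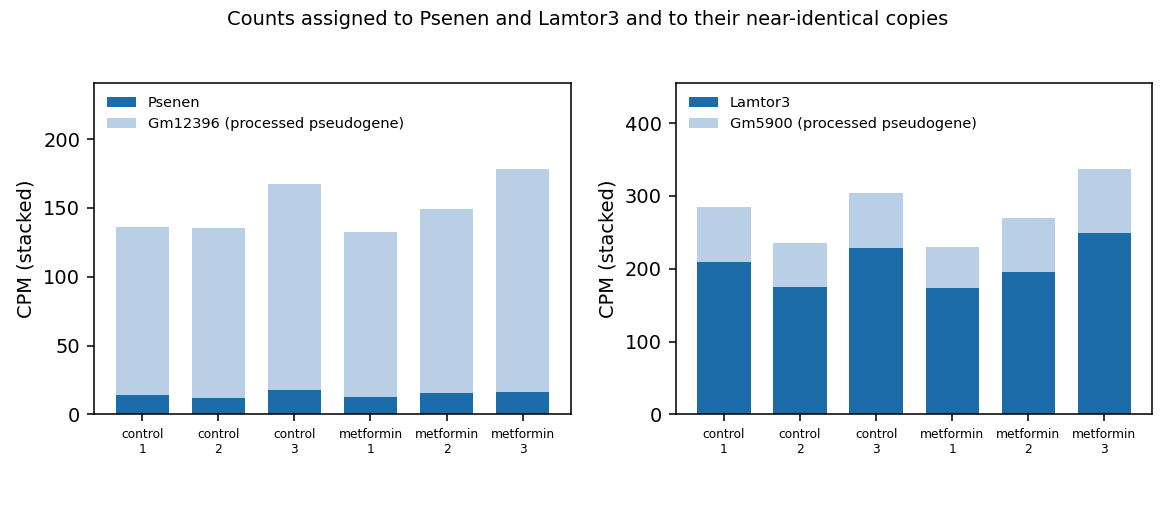
CPM assigned to Psenen and Gm12396 (left) and to Lamtor3 and Gm5900 (right), stacked, 1 bar per library. Most of each left bar is the pseudogene (119.7 to 162.5 CPM against 11.9 to 17.9 CPM for Psenen), and most of each right bar is Lamtor3.

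The genes that act next to this machinery were taken from a list of 57 genes (58 identifiers, since Aldoa has 2), of which 52 identifiers were tested. Of these, 0 passed by edgeR, by DESeq2 or by limma-voom (0.0391%, 0.0308% and 0.0313% of all genes passed). By edgeR, 23 were fitted higher, or 44.2% against 52.5% of all genes, and 29 lower. An unadjusted p under 0.05 was reached by 1, against 1.5% of all genes. That gene was Tbc1d7, a subunit of the TSC complex, which restrains mTORC1. It had 14, 17 and 15 counts in control and 37, 37 and 31 with metformin. The groups did not overlap, with a log2 ratio of 1.06 (SE 0.289, 95% interval 0.43 to 1.69; unadjusted p = 0.0034, adjusted p = 1.00, edgeR). The other TSC genes, Tsc1 and Tsc2, had log2 ratios of -0.08 (SE 0.229) and 0.26 (SE 0.337). Without metformin replicate 3, 1 gene of the list was called, the LKB1 partner Stradb, with a log2 ratio of -1.53 (adjusted p = 0.00413, edgeR) against -0.80 with all libraries. In that fit 0.0907% of all genes passed.

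Of the list, Rogdi, a subunit of the RAVE-like assembly factor of the V-ATPase, and Nprl3, a subunit of the GATOR1 complex that inactivates RagA and RagB, had the next smallest p. Rogdi had 27, 15 and 13 counts in control and 13, 11 and 13 with metformin, with a log2 ratio of -0.68 (SE 0.388, unadjusted p = 0.104). Nprl3 had 19, 16 and 14 counts in control and 16, 12 and 5 with metformin, with a log2 ratio of -0.69 (SE 0.427, unadjusted p = 0.132). Both rest on few reads. Without control replicate 1 the log2 ratio of Rogdi was -0.32, and that of Nprl3 ran from -0.37 without metformin replicate 3 to -1.03 without metformin replicate 1. On the annotation, Nprl3 shares 1340 exonic bases with Mpg and Rogdi 240 with Gm42477.

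The most abundant gene of each role of the list was taken by FPKM, and its level is given in CPM. Among the AMPK and LKB1 genes, Prkab1 and Stradb had almost the same mean over the 6 libraries, with 13.25 and 13.21 FPKM. Stradb had 16.97 ± 0.801 FPKM in control and 9.45 ± 5.86 FPKM with metformin (SD, n = 3), a difference that did not pass the test with all libraries. Prkab1, an AMPK beta subunit, had 90.6 ± 5.58 CPM in control and 92.6 ± 13.6 CPM with metformin (SD, n = 3). Sec13, shared by the nuclear pore and the GATOR2 complex, had 415 ± 45.7 and 434 ± 69.4 CPM (SD, n = 3). Lamp1, a lysosomal membrane glycoprotein, had 114 ± 7.20 and 111 ± 20.05 CPM (SD, n = 3). Ncstn, the gamma-secretase subunit nicastrin, had 49.6 ± 5.85 and 47.2 ± 3.81 CPM (SD, n = 3). Ccdc115, a V-ATPase assembly factor, had 62.9 ± 5.21 and 63.6 ± 2.59 CPM, and Axin2, the relative of Axin1, 24.3 ± 3.19 and 25.6 ± 2.99 CPM (SD, n = 3). The log2 ratios of Prkab1, Sec13, Lamp1, Ncstn, Ccdc115 and Axin2 lay between -0.07 and 0.08.

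Tfeb, a master regulator of lysosomal genes in many cells, had no read in any library, which allows up to 0.285 to 0.338 CPM by counting error. Its relatives Tfe3 and Mitf had 10.6 ± 1.53 and 10.0 ± 1.65 CPM in control and 10.9 ± 2.74 and 10.9 ± 2.59 CPM with metformin (SD, n = 3).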

How the data were processed

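RNA was sequenced from 6 mouse oocyte libraries, 3 per group. Per the labels' protocols, libraries came from the SMART-Seq HT kit, which primes on poly(A) tails and keeps neither strand nor molecular identifiers. Per the submitters' processing notes, CASAVA 1.8, TopHat2 2.0.6 and the mm10 build were used. How reads were counted, with which annotation, and what became of those fitting more than 1 gene is not given in the sources used here. In each library every gene has a count of raw reads and an FPKM, per the file headers, and both were used as deposited by the authors. Symbols and positions came from GENCODE M21 on GRCm38 and were found for 55141 of 55487 identifiers, and 346 had none.

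Groups were compared with the robust quasi-likelihood fit of edgeR 4.0.16 (in R 4.3.3) on TMM-scaled counts, with no covariate. The filterByExpr function kept 12793 genes at a minimum count of 10, and p-values were adjusted over these by Benjamini-Hochberg, with a threshold of 0.05. CPM values use TMM-scaled library sizes. Intervals are at 95% and unadjusted. DESeq2 1.42.0, limma-voom (limma 3.58.1), other scalings and filters, a replicate block and each library left out were alternatives. The script was tested on simulated counts. Near-identical copies were found with blastn 2.17.0 on GENCODE transcripts. Sequences were read from those transcripts.

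The 33 genes, the lists and the tests were chosen with earlier results of these data known. Values per library are given for the 8 genes with the smallest unadjusted p, the most abundant gene of each role by FPKM, the catalytic subunits Atp6v1a and Atp6v1b2, Psenen, Atp6ap1, Axin1 and Lamtor1. From the list of adjoining genes, the 3 with the smallest p and the most abundant of each role are named. Others were chosen after their values were seen. The labels do not say whether samples came from separate animals, pools or drops, so p-values measure only the spread between the samples at hand, which may be technical. Reads amplified by PCR are not independent molecules, so the floor of 3 counts covers counting error only. With no spike-in, these values cannot show whether the amount of RNA in an oocyte differed.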

Additional observations from a re-analysis of the deposited data

How the results depend on the processing

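Among all genes tested, 5 were called in the main analysis, 8 by DESeq2, and 5 to 12 with 1 library left out: 9 without control replicate 1, 8 without control replicate 3, 9 without metformin replicate 1, 11 without metformin replicate 2 and 12 without metformin replicate 3. Of the 30 genes described, 0 to 1 were called with 1 library left out. The 1 was Atp6v0a2 without metformin replicate 3 (log2 ratio -1.14, adjusted p = 0.0394, edgeR). The cause was not tested. With the replicate number as a block, 7 genes were called and 0 of the 30. The labels do not say that a number marks a shared animal or day, so the numbers were not taken to pair the libraries. For 6668 genes, the deviation of each library from its group mean in log CPM was correlated between control and metformin libraries. These are correlations of deviations, and not of the levels themselves. Within a group the deviations of a gene sum to 0, so the correlations depend on each other. The correlations of same-numbered libraries were 0.168, 0.025 and 0.231. Those of differently numbered libraries ran from -0.204 to 0.051, below the values for numbers 1 and 3 but not below that for number 2. Whether libraries of the same number share a source was not tested. With the block, Atp6v0a2 had a log2 ratio of -0.87 and did not pass (edgeR, adjusted p = 0.484). Of the 30 genes, 13 kept their sign in every alternative that tested them and 17 did not. The alternatives numbered 15, or 14 for the 9 genes that the filter at a mean of 10 CPM removed. With scaling alone, 2 changed sign (Atp6v1h and Lamtor3). Of the genes named, those with counts below about 40 in every library (Lamtor4, Rragb, Rragd, Atp6v0a4, Tbc1d7, Rogdi and Nprl3) had limited precision, and their log2 ratios had SEs from 0.289 to 0.446. With 1 library left out, the log2 ratio also moved by over 1.5 times for Atp6v0a4 (-0.86 without control replicate 3 to -0.21 without metformin replicate 2), Rragd (0.30 without control replicate 2 to 0.82 without control replicate 3) and Atp6v0d1 (to -0.37 without metformin replicate 2). That of Atp6v1g1 ran from 0.24 without metformin replicate 3 to 0.52 without control replicate 3.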

Other observations

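Flcn, whose protein folliculin acts with its partners Fnip1 and Fnip2 on RagC and RagD at the lysosome, varied widely within both groups. It had 85, 478 and 599 counts in the control libraries and 615, 63 and 102 in the metformin libraries. In CPM, 3 libraries stood at 6.19 to 10.4 and 3 at 54.05 to 61.9, with both groups represented at each level. The log2 ratio was -0.73 (SE 1.195, adjusted p = 1.00, edgeR). Its partner Fnip1 had 161 ± 7.66 CPM in control and 161 ± 7.27 CPM with metformin (SD, n = 3). No other annotated gene shares exonic bases with Flcn, and no near-identical copy was found. Flcn was chosen after its values were seen, and the cause was not tested.

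Stradb, a pseudokinase partner of LKB1, the kinase that activates AMPK, had 156, 149 and 176 CPM in control and 57.5, 53.7 and 166 CPM with metformin. Metformin replicate 3 lay within the control range and the other metformin libraries below it, and it was the library of that group nearest to the controls for Atp6v0a2 as well. The log2 ratio was -0.80 (SE 0.487, adjusted p = 1.00, edgeR), and without metformin replicate 3 it was -1.53 (SE 0.155, adjusted p = 0.00413, edgeR). Its relative Strada had 7.58 ± 1.81 and 7.78 ± 1.81 CPM (SD, n = 3). Stradb was chosen after its values were seen, and the cause was not tested.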
